A study of Mus musculus with 3 samples.

Results

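The 44 genes described here mark cells that are copying their DNA or dividing, and they were taken from the deposited matrices by gene symbol. All 44 were found as 1 row each among 32285 genes. They were sorted by textbook phase into 16 genes of S phase, 25 genes of G2 and mitosis (G2/M) and 3 genes, Stmn1, Hmgb2 and Diaph3, for which no phase was assigned. They were listed by gene name, with earlier results of these data known.

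The cells came from quadriceps muscle of C57BL/6 wildtype (WT) mice in which a volumetric muscle loss (VML), a defect too large to heal by itself, had been filled with particles of polycaprolactone (PCL), a degradable polyester that provokes a foreign body response. Muscle and implant were harvested as one at 6 weeks. Dead cells were removed, leukocytes carrying CD45 and cells without it were separated on magnetic beads and remixed 1:1, and droplet libraries were made with 10x 3′ chemistry. There is 1 group of 3 libraries, called replicates 1, 2 and 3, with no untreated or uninjured group, so every comparison sets classes of cells against each other inside the libraries. Separate animals are not named in the labels. A p-value here rests on the spread left between the 3 libraries after the level of each library is taken out. That spread is estimated over all sums of a fit together and could be technical. The bead sort and remix bear on how many cells of a class were captured, and the results are given within classes.

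A dividing cell runs through a fixed order of events. In G1 and S phase, licensing factors load the MCM helicase onto DNA, E2F transcription factors switch on the replication genes, and nucleotide synthesis feeds the polymerases. In G2 and mitosis the kinase CDK1 with cyclins A and B takes over, the spindle and kinetochores are built, the anaphase-promoting complex destroys its targets and the daughter cells are cut apart. In injured tissue, fibroblasts, endothelial cells, some resident macrophages and pools of immature lymphoid and dendritic cells are known to divide, whereas mature neutrophils and muscle fibres do not.

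The libraries held 6068, 8643 and 4996 barcodes with 136519688, 192348779 and 104482261 UMIs (unique molecular identifiers, 1 per captured molecule) for replicates 1, 2 and 3. After filters on depth, mitochondrial share and doublets, 17955 cells remained. Any 2 libraries shared 10 to 13 barcodes. Cells were grouped by clustering that left out every gene of the cell cycle lists used here, and classes were named "-like" from fixed markers. Fibroblast-like cells were the largest class with 10141 cells and 7 of 7 markers detected in at least 25% of cells, followed by 2960 macrophage-like cells with 8 of 9 markers and, among the classes reported most below, 310 dendritic-like cells with 12 of 18. In all, 11 classes had at least 20 cells in every library and were tested. Median depth per cell was 26062 UMIs in fibroblast-like, 13874 in macrophage-like, 1527.5 in muscle fibre-like and 4998 in neutrophil-like cells.

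Many promoters of the members carried letters known from genes of their phase, and 4 of them, a pair for each phase, are shown as examples of these letters. RefSeq promoters on build GRCm38.p6 were matched by symbol for 37 of the 44 members, as windows of 250 bases before to 50 bases after the start of the gene. The cell cycle homology region (CHR) was written TTTGAA and searched on both strands. It is bound by the DREAM complex, which holds G2/M genes off until late in the cycle. The CHR was found for 15 of the 21 G2/M genes in the promoter table (71.4%), 1 of the 14 S genes (7.14%, Mcm2) and 20.2% of all 27025 genes of the table, where a gene counts once if any of its promoters has a match. E2F motifs, searched as TTTCCCGC, TTTGGCGC, TTTCGCGC and TTTGCCGC on both strands, were found for 7 of 14 S genes, 1 of 21 G2/M genes (4.76%, Cdk1) and 2.61% of all genes. The box CCAAT, often found near a CHR, was found for 18 of 21 G2/M genes, 9 of 14 S genes and 41.1% of all genes. A match describes letters in the window and is not evidence of binding. The 150 bases before the start are printed 5′ to 3′ on the strand of the gene, with CHR letters in capitals for Top2a (chr11:99024190-99024339, minus strand) and Mki67 (chr7:135716380-135716529, minus strand) and E2F letters in capitals for Mcm6 (chr1:128359706-128359855, minus strand) and Mcm5 (chr8:75109359-75109508, plus strand).
Top2a: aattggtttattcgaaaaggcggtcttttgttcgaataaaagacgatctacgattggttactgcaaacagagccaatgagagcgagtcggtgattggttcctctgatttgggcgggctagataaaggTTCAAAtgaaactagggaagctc
Mki67: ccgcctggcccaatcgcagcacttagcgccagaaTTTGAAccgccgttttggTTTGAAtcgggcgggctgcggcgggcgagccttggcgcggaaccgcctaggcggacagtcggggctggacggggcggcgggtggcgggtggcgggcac
Mcm6: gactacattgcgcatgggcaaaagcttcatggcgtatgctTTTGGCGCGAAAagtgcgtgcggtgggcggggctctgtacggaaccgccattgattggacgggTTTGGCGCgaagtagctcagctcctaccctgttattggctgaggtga
Mcm5: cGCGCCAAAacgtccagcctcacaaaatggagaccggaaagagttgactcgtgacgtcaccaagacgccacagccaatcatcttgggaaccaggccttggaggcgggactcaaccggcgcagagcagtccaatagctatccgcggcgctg
The CHR of Top2a lies 23 bases before its start in the reverse orientation, and Mcm6 holds 3 E2F matches, of which a pair overlaps.

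Cells with a division programme were found in most stromal and immune classes, at the highest shares in dendritic-like and in T-, NK- or ILC-like cells. Each cell was thinned to 3000 UMIs, and a cell was called dividing when at least 3 different S genes or at least 3 different G2/M genes had a UMI. The call reads transcripts and does not count mitoses. By this rule 683 of 16222 cells with enough UMIs were dividing, a mean of 4.16% ± 0.41 over the libraries (SD, n = 3, as for all shares below). Among 819 neutrophil-like cells, the class that gives the background of stray transcripts, 1 was called (0.122%, exact 95% interval 0.00309% to 0.678%, counting error only). Among 81 muscle fibre-like cells 0 were called, which allows a share of up to 3.70%. Thinned cells of every class were held at the same 3000 UMIs, while median depths before thinning were 5413 UMIs in neutrophil-like and 7168 UMIs in muscle fibre-like cells outside the call, against 26280.0 UMIs in fibroblast-like cells.

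Dendritic-like cells, which take up antigen and present it to T cells, had 20%, 25.3% and 20.2% dividing cells in replicates 1, 2 and 3 (21.8% ± 2.97, 65 of 298 cells). At this depth and minimum all 3 values lay above those of every other tested class, but the order turned under other settings. Dendritic-like against T-, NK- or ILC-like cells had means of 26.1% against 30.8% at 6000 UMIs and 29.5% against 33.9% with at least 2 genes of a list, where neutrophil-like cells had 3.70% and 5.30%. Without thinning, lymphatic endothelial-like cells also had a higher mean (50.5%) than dendritic-like cells (47.8%). Within them the cDC1-like cells, the type that cross-presents antigen to CD8 T cells, reached 43.8%, 45.0% and 51.6% (46.8% ± 4.23, 48 of 103 cells). The cDC2-like cells, which mainly prime CD4 T cells, had 14.3%, 15.9% and 8.33% (12.8% ± 3.99, 17 of 129 cells), below the cDC1-like share in each library. Of 66 migratory dendritic-like cells, which carry antigen to lymph nodes, 0 were called, a count that allows a share of up to 4.55%. The 6 cDC1 markers summed to 1964, 2169 and 2579 CPM (UMIs scaled to a common library total) in dividing against 875, 1159 and 1005 CPM in the other dendritic-like cells, higher in 3 of 3 libraries. Within the cDC1-like cells the sums were 2891, 2799 and 3023 CPM in dividing against 3309, 2301 and 3102 CPM in other cells, with overlapping ranges and a mean of 2904 CPM in both.

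Macrophage markers did not move with the dendritic call in a fixed direction. Their sum was 1167, 394 and 501 CPM in dividing against 784, 1039 and 1019 CPM in other dendritic-like cells, so that replicate 1 was higher and replicates 2 and 3 were lower.

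The T-, NK- or ILC-like class, a pool of small lymphoid groups (ILC, innate lymphoid cells), had 6.82%, 13.9% and 10.8% dividing cells (10.5% ± 3.55, 12 of 117 cells). Within it 6 of 40 NK-like cells were dividing (exact 95% interval 5.71% to 29.8%) and 0 of 32 T cell-like cells, which allows up to 9.38%. A cluster with close T and ILC2 scores held 5 of 25, and the ILC2-like cells 1 of 20. These are counts of few cells, and no difference between the lymphoid groups was tested.

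Fibroblast-like cells, which lay down and remodel connective tissue, had nearly the same dividing share in each library, 4.65%, 4.56% and 4.29% (4.50% ± 0.19, 439 of 9709 cells). They made up 61.2% ± 11.8 of the dividing cells and 57.1% ± 15.5 of all thinned cells. Macrophage-like cells, phagocytes that line the particles of an implant, had 2.37%, 2.82% and 3.04% (2.75% ± 0.34, 73 of 2689 cells), below the fibroblast-like share in 3 of 3 libraries. With at least 2 genes of a list in place of 3 this order turned, with means of 12.0% in macrophage-like and 9.39% in fibroblast-like cells, where neutrophil-like cells had 5.30%. Macrophage-like cells were 12.5% ± 7.16 of the dividing cells and 18.5% ± 9.80 of the thinned cells. Dendritic-like cells were 10.1% ± 2.14 of the dividing and 1.94% ± 0.51 of the thinned cells.

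Cells called dividing were also found in the vessel classes, mostly through S genes. Blood endothelial-like cells had 3.96%, 7.39% and 3.18% (4.85% ± 2.24, 29 of 587 cells), and mural-like cells, pericytes and smooth muscle around vessels, had 2.67%, 3.70% and 5.13% (3.83% ± 1.24, 11 of 288 cells). Of these, 16 of 29 blood endothelial-like and 7 of 11 mural-like cells passed by S genes only, and no mural-like cell of replicate 1 passed by G2/M genes. Some S genes were also high outside the call in these classes (Tyms at 30.1 ± 3.60 CPM in blood endothelial-like cells, Rrm1 at 60.3, 96.3 and 67.4 CPM in mural-like cells). Lymphatic endothelial-like cells had 6 of 220 (2.73%) and Schwann-like cells, the glia of nerve, 2 of 63. The ranges of the fibroblast-like, blood endothelial-like and mural-like classes overlapped. Monocyte-like cells, the blood precursors of macrophages, had 2 of 484 (0.413%, exact 95% interval 0.0501% to 1.48%), an interval that overlaps that of neutrophil-like cells. Among classes too small to test, tenocyte-like cells, the fibroblasts of tendon, had 1 of 74, and the satellite- or myoblast-like cells that renew muscle had 2 of 53.

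**Figure D1:**
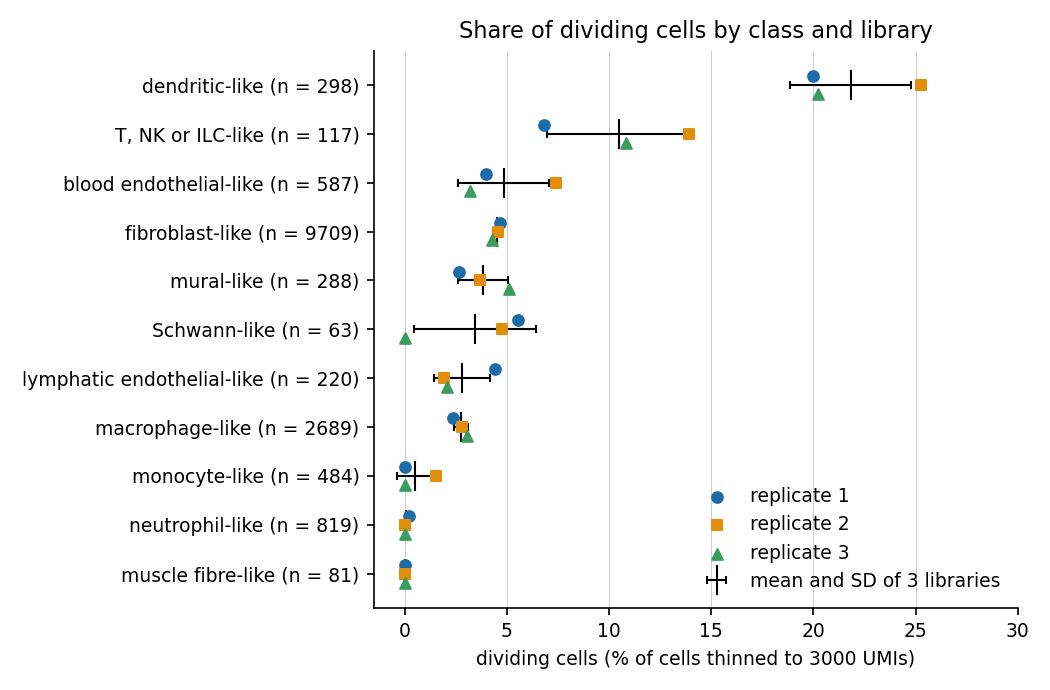
Share of cells called dividing (percent, x axis) for each class, with 1 point per library and the mean with its SD over 3 libraries, in cells thinned to 3000 UMIs. At this depth dendritic-like cells lie at or above 20% in every library, above the other classes, and muscle fibre-like and neutrophil-like cells lie at or near 0.

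Depth and doublets moved with the call and their part in it was not tested. Dividing fibroblast-like cells had a median of 45221 UMIs against 26280.0 in the other fibroblast-like cells, and dividing dendritic-like cells 26051 against 16557. Without thinning and pooled over libraries, the same rule marked 47.7% of dendritic-like, 42.6% of fibroblast-like, 30.5% of macrophage-like and 1.97% of neutrophil-like cells. Barcodes removed as doublets were called dividing in 9.50%, 9.82% and 10.7% of cases in replicates 1, 2 and 3, against 3.73%, 4.55% and 4.19% of the kept cells. The median doublet score was 0.0560 in dividing and 0.0380 in other fibroblast-like cells, and 0.0422 against 0.0363 in dendritic-like cells. A UMI of Mki67 alone was found in 1.43% ± 0.13 of thinned macrophage-like cells and in 1.14% ± 0.30 of neutrophil-like cells, with overlapping ranges. A UMI of Top2a was found in 1.71% ± 0.18 of macrophage-like cells and in 0 of 819 neutrophil-like cells, which allows a share of up to 0.366%.

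Dividing fibroblast-like cells were concentrated in a pair of clusters. Cluster 1 had 14.5%, 14.6% and 14.9% dividing cells (14.7% ± 0.22, 253 of 1726) and cluster 3 had 9.70%, 8.72% and 6.96% (8.46% ± 1.39, 129 of 1509). The class had 439 dividing cells in all, and the clustering had not used any gene of the cell cycle lists. Other genes that differ with division were among its variable genes, including 4 of the 6 genes outside the lists with the largest rise in dividing fibroblast-like cells and a mean of at least 50 CPM (Hist1h1b, Hist1h2ap, Aspm and Hist1h2ae), and their part in the clusters was not tested. In every library both lay above each of the other fibroblast-like clusters with at least 20 thinned cells in every library. They were also the deepest of these, with medians of 44911 and 32875 UMIs against 13987 to 28628 in the others. Their median doublet scores were 0.0402 and 0.0551, against 0.0178 to 0.0429. The part of depth and doublets in the cluster shares was not tested. Cluster 1 was led by Spp1, which encodes the matricellular protein osteopontin, at 1796 CPM against 22.3 CPM in the other fibroblast-like cells, with Cxcl5, a neutrophil chemokine (734 CPM against 51.0 CPM), and Tnc, the matrix protein tenascin C (2185 CPM against 231 CPM). Cluster 3 was led by Spon2, a secreted matrix protein, at 459.7 CPM against 126 CPM, with Kera, the proteoglycan keratocan, and Ptn, the growth factor pleiotrophin. These leading genes describe the clusters and were not tested.

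The larger remaining fibroblast-like clusters had few dividing cells. Cluster 2 had 1.14% ± 0.94, cluster 5 had 0.815% ± 0.71, and cluster 6 had 0.673% ± 0.88 with 1.67% in replicate 3. Clusters 4, 7 and 8 had means of 0.323%, 0.346% and 0.212%. Cluster 7, which held 901 thinned cells with Myoc and Lsamp among its leading genes, had 3 dividing cells. Cluster 19, in which 56 of 345 cells had at least 3000 UMIs, had 12 dividing cells of the 56, with 11.1%, 40.0% and 11.1% in the replicates. The small cluster 18.4 had 4 of 25. In the macrophage-like class the cluster led by the complement genes C1qa and C1qb had 3.52%, 5.56% and 3.70% (4.26% ± 1.12, 23 of 578). The larger macrophage-like cluster led by Mmp12, a macrophage elastase, had 1.82%, 1.94% and 2.64% (2.13% ± 0.44, 40 of 1867), lower in each library.

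**Figure D2:**
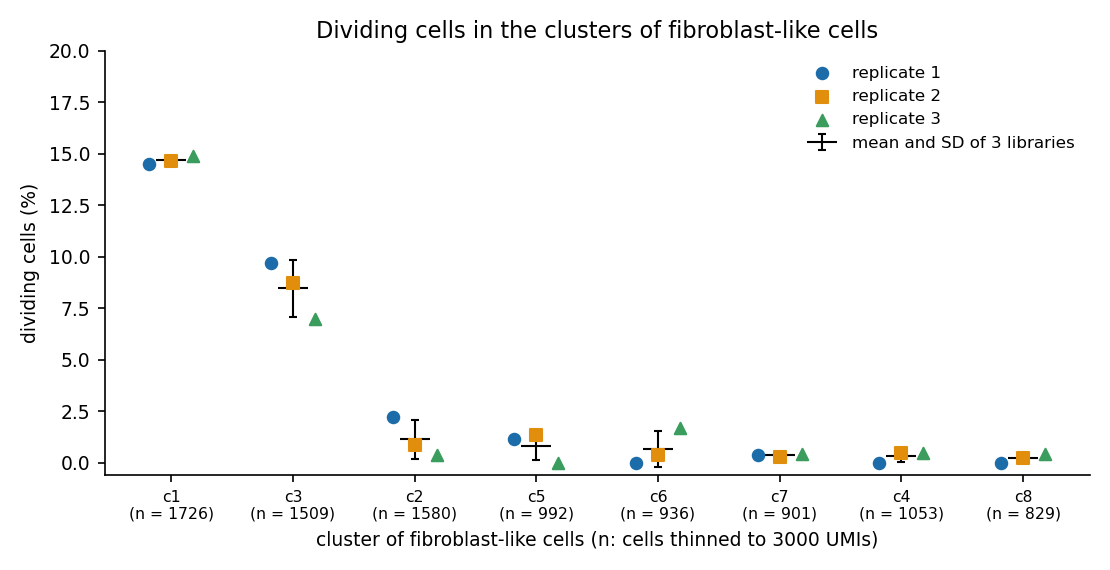
Share of dividing cells (percent) in the fibroblast-like clusters with at least 20 thinned cells in every library, with 1 point per library and the mean with its SD over 3 libraries. Clusters 1 and 3 lie between 6.96% and 14.9%, and the other clusters lie at or below 2.20% in every library.

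The 25 G2/M genes summed to their highest levels in the 2 classes with the highest dividing shares, while the other classes did not follow the order of the shares. The sums were 993 ± 259 CPM in dendritic-like, 760 ± 162 CPM in T-, NK- or ILC-like, 315 ± 9.72 CPM in fibroblast-like, 176 ± 136 CPM in blood endothelial-like, 138 ± 18.9 CPM in macrophage-like and 353 ± 9.75 CPM in neutrophil-like cells. Mki67, which encodes the Ki-67 protein that coats mitotic chromosomes and is the usual stain for dividing cells, was at 116, 191 and 108 CPM in dendritic-like, 86.1, 139.9 and 136 CPM in T-, NK- or ILC-like and 26.6, 29.9 and 25.5 CPM in fibroblast-like cells. It was at 11.1, 32.7 and 4.44 CPM in blood endothelial-like, 12.9, 9.23 and 8.13 CPM in macrophage-like and 6.55, 3.70 and 5.41 CPM in neutrophil-like cells, and at 0 in Schwann-like and muscle fibre-like cells of each library. The dendritic-like and the lymphoid ranges overlap with each other and lie above the fibroblast-like range, which lies above the macrophage-like range.

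Top2a, the topoisomerase that untangles chromosomes before they part, was at 136, 190.4 and 106 CPM in dendritic-like, 128, 130.4 and 116 CPM in T-, NK- or ILC-like, 31.5, 30.7 and 28.9 CPM in fibroblast-like and 14, 10.2 and 11.4 CPM in macrophage-like cells. The order of these 4 classes was that of Mki67. These levels are sums over a class, in which more dividing cells and more RNA per dividing cell cannot be told apart. Of the 25 G2/M members 21 had their highest mean level in dendritic-like cells. In most of these 21, Mki67 and Top2a among them, the range overlapped that of the second class. The exceptions were Ccna2 and Cenpe in T-, NK- or ILC-like, Anln in fibroblast-like and Cks2 in neutrophil-like cells. Of these 4 only Cks2 had its lowest library above the highest library of the second class. Of the 16 S members 9 were highest in T-, NK- or ILC-like and 5 in dendritic-like cells. The share of all genes with their highest level in each class was not counted.

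Each class was tested against the average of the other classes with edgeR on UMIs summed per library and class, with the library as a block. Calls required a Benjamini-Hochberg adjusted p under 0.05 over all genes and a log2 difference of at least 1 in size. All 44 members passed the filter on low counts among 13714 genes tested. The average includes Schwann-like and muscle fibre-like sums in which many members were at 0, so the size of a fitted difference depends on how zeros are handled. Values without these 2 classes, an alternative chosen after seeing the data, are given where they end a call.

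In dendritic-like cells 25 of 25 G2/M genes, 15 of 16 S genes and the 3 genes without a phase were higher, 43 of 44 in all, and 0 were lower, where 17.9% of all tested genes were higher and 8.22% lower. The median log2 difference was 3.65 over the G2/M genes, 2.17 over the S genes and 0.16 over all genes. Mki67 was higher by 5.34 (SE 0.50, adjusted p = 9.93e-10) and Top2a by 4.17 (SE 0.29, adjusted p = 2.29e-13). Pclaf, the PCNA clamp-associated factor, had the largest difference of the members with 6.09, at 128, 145 and 84.0 CPM in dendritic-like cells against 0 in every library of Schwann-like and muscle fibre-like cells. Pcna itself was the member not called (0.80, adjusted p = 2.61e-07), at 150.4, 161 and 133 CPM in dendritic-like against 141, 153 and 140.0 CPM in macrophage-like cells.

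Related genes outside the 44 were also tested in dendritic-like cells. Of 36 further S genes 26 were higher, led by the recombination factor Rad51ap1 (log2 4.42) and by Uhrf1 (4.08), which helps to copy DNA methylation. Of 53 further G2/M genes 45 were higher, led by the spindle kinesin Kif15 (5.58) and the kinase Melk (5.33). Among 25 regulators of the cycle 12 were higher and 2 lower, with the G1 cyclin Ccnd1 at 3.66 and the repressor E2f7 at 3.46. Of 14 genes that supply chromatin and spindle protein 10 were higher, among them the lamin Lmnb1 (2.94).

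In T-, NK- or ILC-like cells 39 of 44 members were higher and 0 lower, where 17% of all genes were higher and 8.87% lower. The calls were 21 of 25 G2/M genes, 15 of 16 S genes and the 3 without a phase. Mcm6, a subunit of the replicative helicase, was at 89.3, 104 and 80.6 CPM against 58.4, 47.1 and 37.3 CPM in dendritic-like and 17.5, 15.5 and 16 CPM in fibroblast-like cells, with no overlap between the first and second class. Mcm4, Cdt1 and Pcna were likewise highest here with no overlap. The members not called were Aurka, the spindle pole kinase, with a log2 difference of −1.51 (adjusted p = 0.259), Anln with 1.00, Kif20a, a kinesin of cytokinesis, with 1.25, Ccne1, a cyclin that starts S phase, with 1.59, and Cdc20 with 2.25. Of further genes 31 of 36 S genes and 32 of 53 G2/M genes were higher.

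In fibroblast-like cells 27 of 44 members were higher and 0 lower, where 28% of all genes were higher and 5.82% lower. The calls were 20 of 25 G2/M genes, 6 of 16 S genes and Diaph3. The median log2 difference was 2.19 over the G2/M genes, 0.86 over the S genes and 0.34 over all genes. Plk1, the kinase that drives entry into mitosis, had 4.03 (SE 0.53), Ube2c, the ubiquitin conjugase of the anaphase-promoting complex, had 4.0 (SE 0.61) and Cenpf, a kinetochore protein, had 3.81 (SE 0.72). The 6 S genes called were Pclaf, Rrm2, Cdc6, Tk1, Mcm6 and Tyms. Anln, the scaffold of the contractile ring, was at 17.2, 17.3 and 16.5 CPM, against 13.4, 14.4 and 6.74 CPM in dendritic-like cells, with a log2 difference from the average class of 1.97 (adjusted p = 3.81e-07). The gene Gm48646 overlaps Anln on the same strand, so its counts are uncertain.

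Mki67 was higher by 2.81 in fibroblast-like cells (adjusted p = 0.00284). The difference was 0.66 without the 2 classes with many zeros (adjusted p = 0.0779) and 1.56 with DESeq2 (adjusted p = 0.0504), and each of these ends the call. With the 2 classes left out 19 members were higher and 1 lower. Hmgb2, a DNA-bending chromatin protein, was at −0.94 and not called over all classes, and was called lower under 5 alternatives, with −1.63 without the 2 classes as the largest of these differences. Pcna had −0.57, the licensing factor Cdt1 had −0.52 and Mcm3 had −0.33, and none of these 3 was called.

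Of further genes 13 of 36 S genes and 32 of 53 G2/M genes were higher in fibroblast-like cells, 2 G2/M genes were lower, and Pbk, a mitotic kinase, led with 3.62. Among regulators 11 of 25 were higher and 2 lower. The largest differences of this list were those of 3 inhibitors of the cycle, Cdkn2a (5.61), Cdkn2b (4.18) and Cdkn1c (3.62).

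In blood endothelial-like cells 12 of 44 members were higher and 0 lower, where 19.3% of all genes were higher and 7.05% lower. These were 5 of 25 G2/M genes and 7 of 16 S genes. Tyms, thymidylate synthase, was at 26.8, 34.3 and 26.6 CPM, and its log2 difference was 2.53 (SE 0.20, adjusted p = 2.51e-12). Cenpf was at 2.50, 26.7 and 1.48 CPM (log2 2.81), so that replicate 2 carried its level. The count of higher members was 7 without replicate 2, 18 without replicate 1 and 5 without the 2 classes with many zeros.

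In macrophage-like cells few members were called, 2 higher and 1 lower of 44, where 16.9% of all genes were higher and 6.83% lower. Bub1b, a kinase-like protein of the spindle checkpoint, was at 11.3, 11.2 and 11.5 CPM with a log2 difference of 1.54 (SE 0.30). Cdt1, which loads the MCM helicase, was at 13.4, 13.7 and 14.4 CPM with 1.32 (SE 0.20), a value that fell just under the threshold without the 2 classes with many zeros (0.97). Tyms was lower by 1.41 on the log2 scale and was at 2.94, 2.28 and 1.95 CPM, with −0.36 and no call without replicate 1. Without replicate 2 there were 4 members higher, among them Ube2c (2.82).

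Set directly against fibroblast-like cells, macrophage-like cells had 2 members higher and 24 lower, where 17.2% of all genes were higher and 26.5% lower. The lower members were 18 of 25 G2/M genes, 5 of 16 S genes and Diaph3. Cdc20, the activator of the anaphase-promoting complex, was at 1.53, 0.651 and 1.09 CPM in macrophage-like against 8.22, 7.80 and 6.79 CPM in fibroblast-like cells, a log2 difference of −2.63 (SE 0.43, adjusted p = 3.4e-06). Mki67 differed by −1.41 (SE 0.43, adjusted p = 0.00497) and Top2a by −1.33 (SE 0.32, adjusted p = 5.62e-04), and both lost the call with DESeq2 (adjusted p = 0.152 and 0.117). Tyms and Tk1, enzymes that supply thymidine nucleotides, differed by −2.31 and −2.12. The higher members were Pcna, the sliding clamp of DNA polymerase, at 141, 153 and 140.0 CPM in macrophage-like against 60.3, 68.8 and 57.7 CPM in fibroblast-like cells (log2 1.22, SE 0.14), and Cdt1 (1.68, SE 0.20). The libraries of the 2 classes did not overlap in any of these 7 genes. All 7 had been called, and the share of all genes without overlap was not counted.

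**Figure D3:**
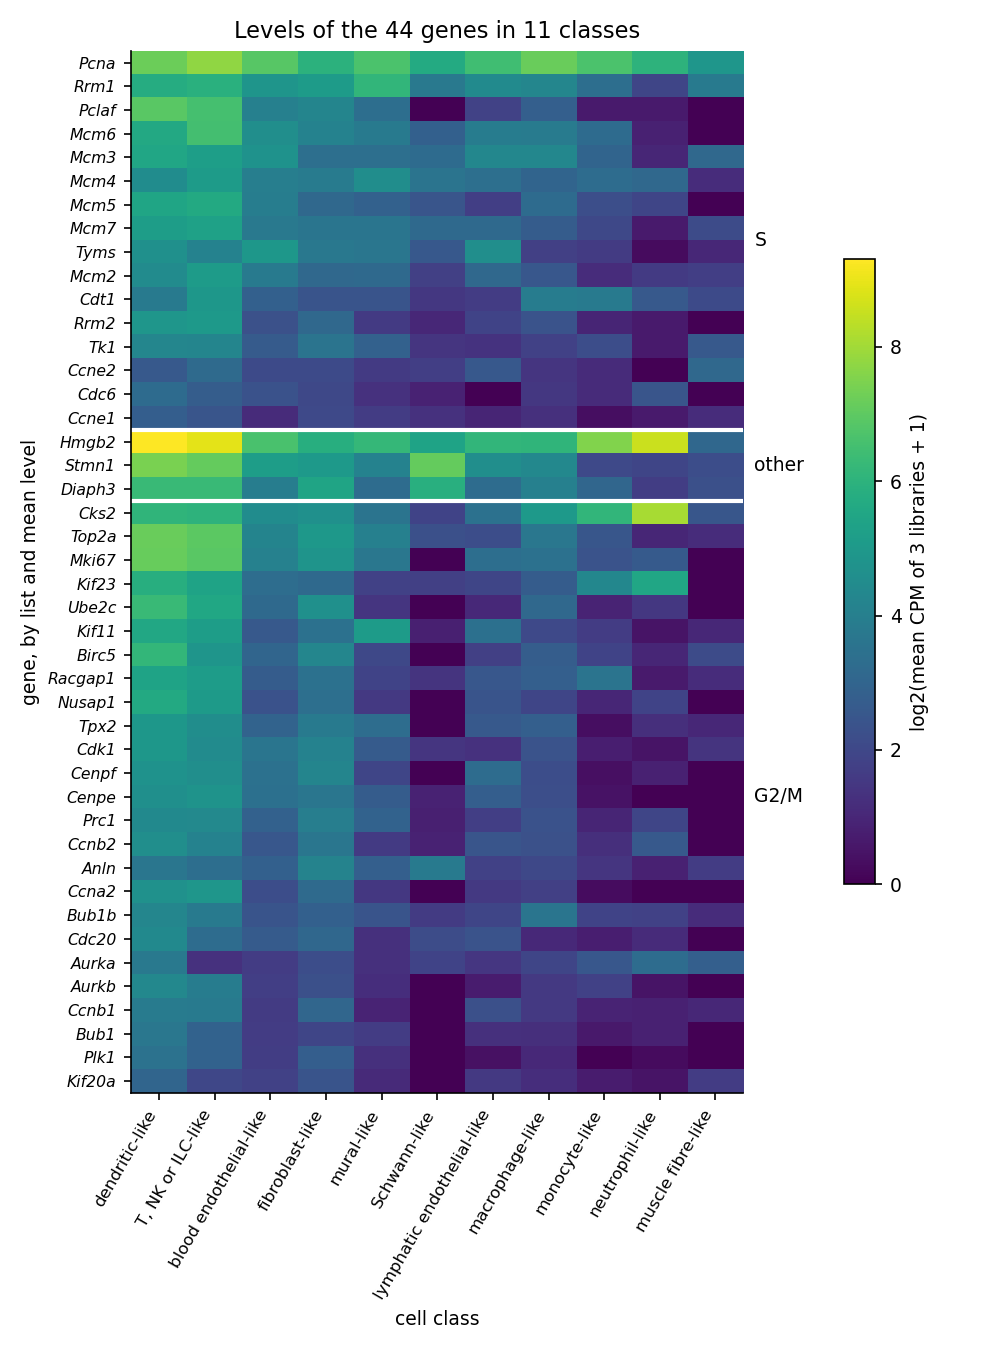
Level of each member by class, as log2 of the mean CPM of 3 libraries plus 1, with members grouped by phase in rows and classes in columns. The dendritic-like and the T-, NK- or ILC-like columns are high through both phases, the fibroblast-like column is above the macrophage-like column in most G2/M rows, and Cks2, Kif23 and Hmgb2 stand out in the neutrophil-like column.

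The ratio of summed S to summed G2/M UMIs differed between classes. These sums are over all cells of a class, including those outside the dividing call, so the ratio need not describe dividing cells. The log2 ratio of summed S UMIs over summed G2/M UMIs was −0.29, −0.84 and −0.75 in dendritic-like cells (mean −0.63 ± 0.30) and −0.53, −0.46 and −0.48 in fibroblast-like cells (−0.49 ± 0.04), so G2/M UMIs outnumbered S UMIs in every library of both. It was 0.68, 1.11 and 0.89 in macrophage-like (0.90 ± 0.22), 0.78, 0.98 and 1.33 in mural-like (1.03 ± 0.28) and 1.23, 0.16 and 2.05 in blood endothelial-like cells (1.14 ± 0.95). T-, NK- or ILC-like cells had 0.02 ± 0.16. With each gene weighted equally, as a mean of log2 CPM over genes, the same difference was 0.66 in T-, NK- or ILC-like and 0.66 in macrophage-like cells, and it was −0.092 in dendritic-like and −0.062 in fibroblast-like cells. The macrophage-like and fibroblast-like ranges did not overlap, and the difference was not tested.

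Every positive mean ratio named here was negative without Pcna and the MCM genes. Without them the mean ratio was −1.39 in macrophage-like, −0.35 in mural-like, −0.59 in blood endothelial-like and −1.5 in T-, NK- or ILC-like cells. It was −1.72 in fibroblast-like and −1.85 in dendritic-like cells. Leaving genes out of the S list alone can only lower the ratio, and it fell in these last classes too. Pcna was at 137 ± 10.3 CPM in macrophage-like cells outside the dividing call. The ratio of neutrophil-like cells was −1.91 ± 0.08, with 583, 296 and 193 G2/M UMIs and 1 dividing cell, so it does not describe dividing cells.

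The dividing cells were also counted by the list through which they passed. Of 439 dividing fibroblast-like cells 128 passed by S genes only, 147 by both lists and 164 by G2/M genes only. Of 73 dividing macrophage-like cells 37 passed by S genes only, 24 by both and 12 by G2/M genes only. The share that passed by S genes only was 55.6%, 33.3% and 54.8% in dividing macrophage-like cells against 30.8%, 26% and 36.0% in dividing fibroblast-like cells, higher in 3 of 3 libraries, although replicate 2 has only 15 dividing macrophage-like cells. Pcna was also high in macrophage-like cells outside the call, and the part of such S transcripts in this difference was not tested. Dividing dendritic-like cells had 15, 27 and 23 cells in the 3 states. Blood endothelial-like cells had 16, 6 and 7, and mural-like cells 7, 3 and 1. Fibroblast markers summed to 2440.5, 982 and 504 CPM in dividing against 462, 998 and 522 CPM in other macrophage-like cells, high in replicate 1 only, and their part in the G2/M counts was not tested.

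**Figure D4:**
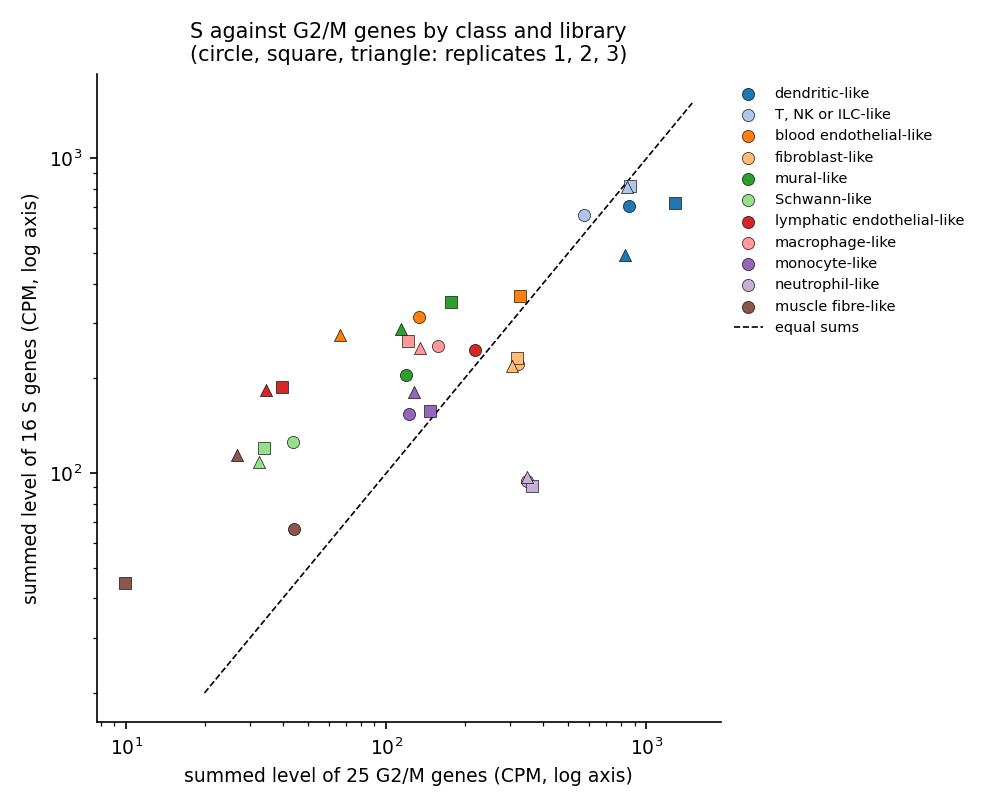
Summed level of the 16 S genes (CPM, log y axis) against that of the 25 G2/M genes (CPM, log x axis), with 1 point per class and library and a dashed line where both sums are equal. Dendritic-like and fibroblast-like cells lie below the line in every library, and macrophage-like, mural-like and blood endothelial-like cells lie above it.

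Members differed in how much of their signal lay in dividing cells. With each cell called without the gene in question, dividing cells were 3.57% to 4.07% of the thinned cells of named classes. They held 93.6% ± 0.51 of the UMIs of Ccna2, 91.3% ± 3.58 of Pclaf, 91.1% ± 3.34 of Ube2c and 89.9% ± 2.99 of Cenpf. Over the G2/M genes the median was 77.1%, and 22 of 25 were above 50%. Over the S genes it was 30.6%, and 4 of 16 were above 50%. Pcna had 12.1% ± 2.71, Mcm4 16.9% ± 2.06 and Cdt1 18.7% ± 6.81, and the lowest G2/M gene was Cks2, a CDK-binding subunit, with 23.2% ± 8.09. Since dividing cells were picked by the correlated members of the same lists, these shares are a description and not a test.

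**Figure D5:**
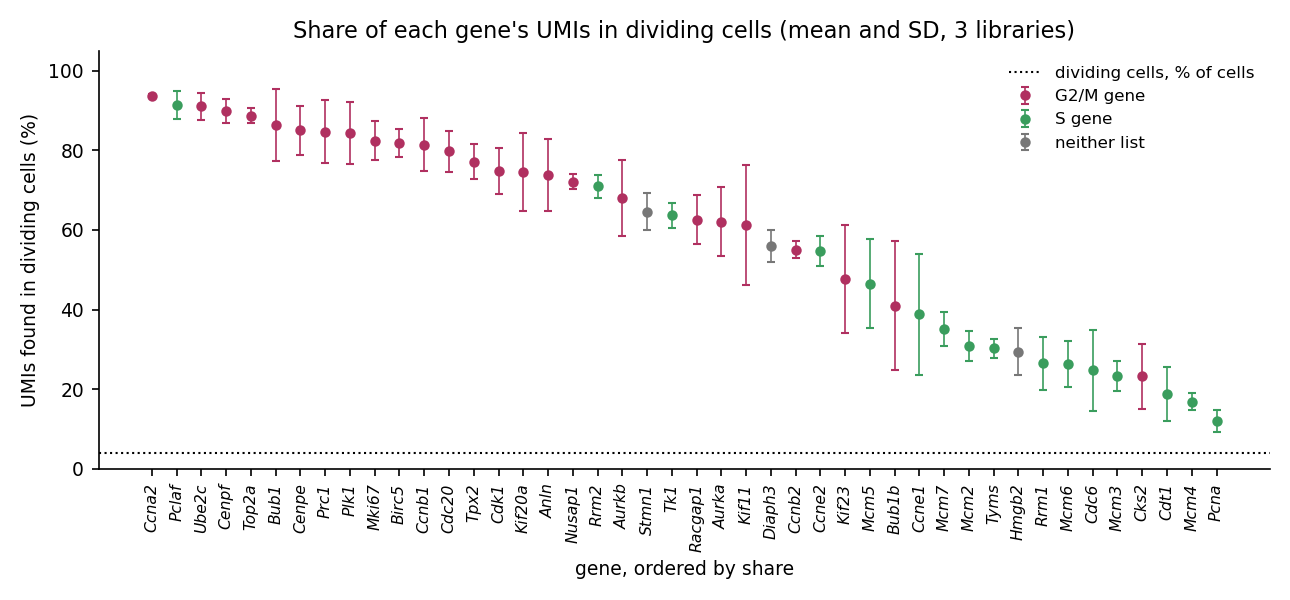
Share of the UMIs of each member that lay in dividing cells (percent, mean and SD over 3 libraries), with members coloured by phase and the share of dividing cells among all cells as a dotted line. Ccna2, Pclaf and Ube2c lie highest, while Pcna, Mcm4 and Cdt1 lie below 20%.

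Several members were high in classes with few cells called dividing. In neutrophil-like cells 4 members were higher and 12 lower, where 21.4% of all genes were higher and 29.1% lower. Cks2 was at 254, 261 and 296 CPM against 70.5, 63.6 and 72.0 CPM in monocyte-like cells, the next class, and its log2 difference from the average class was 3.79 (SE 0.15, adjusted p = 6.66e-20). Kif23, a kinesin of the midbody, was at 49.5, 59.1 and 23.4 CPM (log2 3.30), Hmgb2 at 442, 342 and 355 CPM (2.10) and Aurka at 14.9, 9.85 and 1.80 CPM (1.75, lost without replicate 1). In neutrophil-like cells outside the dividing call Cks2 stood at 139, 170.1 and 185 CPM, scaled to raw UMI totals in place of the normalised totals used for classes. Among the 12 lower members were Top2a (−3.73), Rrm1 (−2.94), the large subunit of ribonucleotide reductase, and Tyms (−4.59). The count of lower members was 6 without replicate 3 and 21 without the classes with many zeros, with no share of all genes counted for either.

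Monocyte-like cells had 4 members higher and 6 lower, where 17.2% of all genes were higher and 11.1% lower. The higher members were Kif23 (1.88), Cks2 (1.63), Cdt1 (1.22) and Racgap1 (1.14), a regulator of cytokinesis. Without the classes with many zeros none of the 4 was called and 26 members were lower, and DESeq2 called 2 higher and 25 lower. The shares of all genes called under these alternatives were not counted, so these counts cannot be set against them. Kif23 was at 18.1, 20.5 and 17.6 CPM in monocyte-like against 7.79, 8.85 and 7.81 CPM in fibroblast-like cells.

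In Schwann-like cells 2 members were higher and 2 lower, where 20.9% of all genes were higher and 7.04% lower. Stmn1, a protein that destabilises microtubules and is known in growing axons as well as in mitosis, was at 138, 135 and 132 CPM (log2 2.80, SE 0.30), while Mki67 was at 0 in each library. Diaph3, a formin that builds actin filaments, was at 25.1, 52.1 and 96.9 CPM (2.12), with no call without replicate 3. Cks2 (−3.54) and Hmgb2 (−1.42) were lower. In dendritic-like cells Stmn1 (159, 211 and 148 CPM) and Diaph3 (69.7, 92.0 and 73.6 CPM) stood beside high Mki67.

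In mural-like cells 5 members were higher and 1 lower, where 21.6% of all genes were higher and 7.74% lower. Rrm1 was at 53.7, 87.5 and 63.8 CPM, the highest mean of all classes, with a log2 difference of 1.87 (SE 0.13, adjusted p = 2.45e-13), and it stood at 60.3, 96.3 and 67.4 CPM outside the dividing cells on the raw scale. Kif11, the motor that pushes spindle poles apart, was at 87.0, 6.31 and 6.19 CPM, so that replicate 1 carried its call (2.80), which was lost without it (adjusted p = 0.574). Without replicate 1 there were 10 members higher, without replicate 2 there were 3, and without the classes with many zeros there were 2. In lymphatic endothelial-like cells Tyms was higher (30.3, 20.3 and 18.1 CPM, log2 2.14), and Cks2 (−1.39), Cdt1 (−1.57) and Tk1 (−1.76) were lower, where 18% of all genes were higher and 9.41% lower. In that class there were 5 higher and 1 lower without replicate 2. The lower members numbered 6 without replicate 1 and 2 without replicate 3.

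Tyms was higher in both endothelial classes. Outside the dividing call it was at 30.1 ± 3.60 CPM in blood endothelial-like and 25.6 ± 5.04 CPM in lymphatic endothelial-like against 6.94 ± 0.402 CPM in fibroblast-like cells. In muscle fibre-like cells 1 member was higher (Ccne2) and 8 were lower, where 17.4% of all genes were higher and 25.8% lower; without replicate 1 these were 0 and 3. Their sums held 9 to 30 S UMIs and 2 to 14 G2/M UMIs per library, too few to order the members.

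The dividing fibroblast-like cells were then set against the other fibroblast-like cells of the same library. The cells had been chosen by S and G2/M members, so those genes are not reported as a result here, and genes of no list were tested apart, where 5.63% of 15599 genes were higher (879 genes) and 8.56% lower (1335 genes). Of 40 further S genes 37 were higher and 0 lower, with Rad51ap1 at 25.4 ± 3.02 against 0.241 ± 0.0129 CPM. Of 62 further G2/M genes 61 were higher, with Pimreg at 62.1 ± 6.53 against 0.0527 ± 0.0133 CPM. These lists hold genes of the same phases as the members that chose the cells, so both counts are a description and not a test. Regulators of the cycle were split, with 11 of 25 higher and 2 lower. Foxm1, the factor that drives G2/M genes, was at 41.7 ± 1.5 against 1.59 ± 0.256 CPM (log2 4.71) and Mybl2, its partner, at 25.5 ± 0.446 against 1.09 ± 0.0856 CPM (4.56). The inhibitor Cdkn1c was at 15.7 ± 6.49 against 92.8 ± 28.2 CPM (−2.60) and Myc, a growth regulator, at 41.4 ± 12.7 against 120.0 ± 29.5 CPM (−1.54).

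The inhibitors of the cycle did not move together. Cdkn2c and Cdkn2d were higher in dividing cells (2.13 and 2.46), Cdkn2a, Cdkn2b, Cdkn1a and Cdkn1b had −0.34, −0.38, −0.81 and −0.63 with no call, and Rb1 had 0.16. Of 14 genes that supply chromatin and spindle protein 13 were higher, with the histone variant H2afz at 846 ± 12.3 against 144 ± 12.5 CPM (2.55) and the lamin Lmnb1 at 102 ± 1.32 against 14.1 ± 2.03 CPM (2.85). Ptma missed the threshold at 0.98.

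Outside all lists the largest differences were those of replication-dependent histones and mitotic genes. Hist1h1b, a linker histone, was at 127, 149.9 and 222 CPM in dividing against 0.156, 0.310 and 0.220 CPM in other cells (log2 9.34, SE 0.14). Depdc1a had 8.56, the spindle pole protein Aspm 6.93, Hist1h2ae 6.47 and Cip2a 5.16. Hist1h2ap had 8.32, and it was at 158, 116 and 1083 CPM in dividing cells, so that replicate 3 was high alone. Replication-dependent histone transcripts mostly lack the poly(A) tail that this chemistry captures.

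The genes lower in dividing cells included Myoc, a leading gene of cluster 7, which was at 8.97, 7.44 and 2.01 CPM in dividing against 238, 241 and 203 CPM in other cells (−5.14, SE 0.18). Saa3, an acute-phase protein, was at 57.3, 34.4 and 7.60 CPM in dividing against 477, 539 and 239 CPM in other cells (−3.75), and Opcml, a cell adhesion protein, at 7.64, 35.1 and 28.9 CPM in dividing against 232, 389.9 and 405 CPM in other cells (−3.88). Zbtb16, Ntrk2 and Gpc3 had −3.60, −3.59 and −3.56. Within clusters 1 and 3 alone (89, 214 and 79 dividing against 645, 1573 and 635 other cells, chosen after seeing the data), 626 genes were higher and 320 lower. There Gpc3 took the opposite sign with no call (0.28), Zbtb16 and Ntrk2 lost their calls (−0.22 and −0.61), and Opcml had −1.26. Dividing cells lay mostly in clusters 1 and 3 and the other cells mostly outside them, and the part of this in the whole-class differences was not tested beyond these values.

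The 3 genes with no assigned phase were high with G2/M in dividing fibroblast-like cells. Stmn1 was at 58.1 ± 11.1 CPM in cells that passed by S genes only, 415 ± 32.1 in cells that passed by both lists, 427 ± 68.2 in cells that passed by G2/M genes only and 7.92 ± 1.71 in the rest. Hmgb2 was at 145 ± 3.18, 586 ± 33.0, 539 ± 104 and 23.3 ± 1.31 CPM, and Diaph3 at 177 ± 10.4, 569 ± 84.7, 386 ± 39.2 and 13.2 ± 1.18 CPM in the same order. For each gene the S-only level lay below the other dividing states in every library. The further S list, which took no part in the call, summed to 1922 ± 179, 2430.3 ± 201, 855 ± 95.4 and 315 ± 9.89 CPM, and the further G2/M list to 1456 ± 68.3, 5843 ± 376, 6592 ± 1004 and 598 ± 6.92 CPM. In every library the further S list was lowest of the dividing states in cells that passed by G2/M genes only, and the further G2/M list was lowest in cells that passed by S genes only. Both lists hold genes of the same phases as the members that set the states, so this is a description and not a test. For macrophage-like cells dividing and other cells were not tested, since replicate 2 held 15 dividing cells, under the minimum of 20.

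Genes on the opposite strand overlap 10 members (Ccne2, Mcm7, Pclaf, Tk1, Ube2c, Prc1, Ccna2, Cdc20, Kif20a and Nusap1) in the reference annotation. The sources used here do not say whether the counting used strand, and reads of these pairs may be mixed.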

How the data were processed

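Per the labels' protocols, cells were captured with 10x 3′ v3.1 chemistry and sequenced on a NovaSeq. The deposited files hold UMI counts per gene and barcode, unnormalised, which the authors made with Cell Ranger 6.1.2 per the submitters' processing notes; the file headers name version 7.0.0. The sources used here name no genome build and no strand setting. Barcodes were kept with at least 500 UMIs, 200 genes and at most 20% mitochondrial UMIs. The barcodes with the highest Scrublet scores were removed as doublets (0.8% per 1000 barcodes; 295, 598 and 200 barcodes). Scanpy 1.11.5 clustered cells on 2000 variable genes without any gene of the cell cycle lists, with 30 components, 15 neighbours and Leiden resolution 1.0, and 22 clusters (1040 cells) stayed unnamed. UMIs were summed per library and class and tested with edgeR 4.0.16 (quasi-likelihood, TMM, Benjamini-Hochberg over all genes). The replicate number is that of the library that every class comes from, so the block pairs classes by library. Class levels are CPM with TMM-scaled totals; levels of cells outside the dividing call, phase states and clusters use raw totals of cells with at least 3000 UMIs, and the 2 scales are not compared. Intervals and limits from a count of 0 (3 counts) cover counting error only. Genes outside the lists were named by rule: at an adjusted p under 0.05, the 6 largest changes each way in dividing fibroblast-like cells with a mean of at least 50 CPM in either group. Tests were checked on simulated counts. Alternatives included DESeq2 1.42.0, RLE scaling, no filter, no block, other clusterings, doublets kept, other thinning depths and gene minimums, and each replicate left out. Members, lists and classes were chosen with earlier results of these data known.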

Additional observations from a re-analysis of the deposited data

Results flagged for a closer look

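Cells of clusters left unnamed lie outside every comparison above, and dividing cells were found among them. Of 682 such cells with at least 3000 UMIs, 39 were called dividing (5.72%, exact 95% interval 4.10% to 7.73%, counting error only), against 0.122% of neutrophil-like cells. The neutrophil-like background need not hold for calls by S genes only, which were 15 of the 39. Among the unnamed clusters, one led by Retnla, Ccl17 and Mgl2 had 9 of 36, and one led by Cd209a and Ccl17 had 11 of 59. Another, led by Frmd5, Ccl22 and Skap1 with Icos, Ctla4 and Trbc2 also high, had 6 of 30. Each was left unnamed because marker scores of different classes were close. The first (0.281 against 0.240) and second (0.332 against 0.232) scored for cDC2 and macrophage. The last scored for T cell and cDC1 (0.232 against 0.230), with a median of 30164 UMIs. Whether these clusters hold mixed droplets was not tested. No difference between these cells and a named class was tested.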

How the results depend on the processing

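Counts of members called, out of 44 tested, moved by over 1.5 times mostly in classes with few calls. The shares of all genes called under these alternatives were not counted. With DESeq2 (library as a block) 2 in monocyte-like cells were higher and 7 in Schwann-like, 1 in fibroblast-like, 9 in lymphatic endothelial-like, 3 in macrophage-like, 25 in monocyte-like and 2 in mural-like cells were lower. With RLE size factors 1 in fibroblast-like, 2 in macrophage-like and 10 in monocyte-like cells were lower, and this scaling moved the all-gene median by −0.22 (monocyte-like) to 0.34 (neutrophil-like) on the log2 scale. Without a filter on low counts 5 in lymphatic endothelial-like, 6 in macrophage-like and 8 in mural-like cells were higher and 4 in Schwann-like, 5 in lymphatic endothelial-like and 11 in monocyte-like cells were lower. With doublets kept 7 in blood endothelial-like, 3 in lymphatic endothelial-like and 2 in mural-like cells were higher and 1 in fibroblast-like and 4 in mural-like cells were lower. At Leiden resolution 2.0, 2 in lymphatic endothelial-like cells were higher. With cell cycle genes in the clustering 2 in lymphatic endothelial-like cells were higher and 7 in macrophage-like and 1 in fibroblast-like cells were lower. Without Schwann-like and muscle fibre-like cells (chosen after seeing the data) 5 in blood endothelial-like, 2 in lymphatic endothelial-like, 1 in macrophage-like, 0 in monocyte-like and 2 in mural-like cells were higher and 1 in fibroblast-like, 12 in lymphatic endothelial-like, 5 in macrophage-like, 26 in monocyte-like, 4 in mural-like and 21 in neutrophil-like cells were lower. Leaving out each replicate in turn, 1 to 2 in Schwann-like, 7 to 18 in blood endothelial-like, 1 to 5 in lymphatic endothelial-like, 2 to 4 in macrophage-like, 3 to 10 in mural-like and 0 to 1 in muscle fibre-like cells were higher; 1 to 6 in lymphatic endothelial-like, 0 to 1 in macrophage-like, 0 to 2 in mural-like, 3 to 8 in muscle fibre-like and 6 to 11 in neutrophil-like cells were lower. Fits with no replicate block gave 2 members higher in lymphatic endothelial-like cells, against 1 with the block that pairs classes by library, and moved no other count by over 1.5 times. Within clusters 1 and 3, 320 genes of no list were lower in dividing cells and Gpc3 reversed (0.28).

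Dividing shares moved with depth and with the genes required. Without thinning they were 38.1% in T-, NK- or ILC-like, 30.7% in blood endothelial-like, 47.8% in dendritic-like, 43.9% in fibroblast-like, 29.8% in macrophage-like, 37.7% in mural-like, 70.8% in cDC1-like and 35.4% in all cells. At 1500 UMIs they were 17.0% in dendritic-like, 3.21% in fibroblast-like, 1.49% in macrophage-like, 1.98% in mural-like, 37.4% in cDC1-like and 2.79% in all cells. At 6000 UMIs they were 30.8% in T-, NK- or ILC-like, 14.8% in blood endothelial-like, 26.1% in dendritic-like, 7.52% in fibroblast-like, 6.63% in macrophage-like, 11.5% in mural-like, 51.1% in cDC1-like and 8.05% in all cells. With at least 2 genes they were 33.9% in T-, NK- or ILC-like, 16.6% in blood endothelial-like, 29.5% in dendritic-like, 9.39% in fibroblast-like, 12.0% in macrophage-like, 11.8% in mural-like, 51.2% in cDC1-like and 10.8% in all cells. With at least 4 genes they were 3.50% in fibroblast-like, 1.5% in macrophage-like, 1.60% in mural-like and 3.1% in all cells. Clustering with cell cycle genes gave 32.5% in dendritic-like, 1.77% in macrophage-like and 62.9% in cDC1-like cells. There a cluster of 81 cells had Hmgb2, Pclaf, Top2a and Mki67 among its leading genes. It was named cDC1-like at a score of 0.305, with macrophage next at 0.192, so these shares need not describe the same classes of cells. Leiden resolution 2.0 gave 18.8% in dendritic-like and 40.2% in cDC1-like cells. Keeping doublets gave 3.41% in macrophage-like cells.

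The log2 ratio of S over G2/M without Pcna and MCM genes was −1.5 in T-, NK- or ILC-like, −1.85 in dendritic-like, −1.39 in macrophage-like and −1.72 in fibroblast-like cells. The mean over genes of log2 CPM gave 0.66, −0.092, 0.66 and −0.062 in the same order. It was 0.21 in T-, NK- or ILC-like cells at resolution 2.0, 1.51 in macrophage-like cells with cell cycle genes in the clustering and −0.45 in fibroblast-like cells with doublets kept. The cause of these changes was not tested. A planned fit of dividing against other macrophage-like cells was not run.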
